A study of Caenorhabditis elegans with 2 samples.

Results

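The cuticle collagens of Caenorhabditis elegans were compared between nematodes fed bacteria making double-stranded RNA for imp-2 and control nematodes, whose bacteria made that of green fluorescent protein (GFP). Members were taken by name from the platform annotation: genes with a symbol starting col-, and the dpy, rol, sqt, bli, lon and ram genes known to encode cuticle collagens. Of 17118 genes with a probe set of their own, 146 were members, 128 with a col- name and 18 named for a mutant body shape. They were read by 166 probe sets. The series holds 2 Affymetrix arrays of total RNA, 1 per group, and both groups were fed the Escherichia coli strain HT115. Strain, stage, age and culture number of the animals were not given in the sources used here. With 1 array per group no difference has a replicate check and no test was possible, so each statement compares these 2 arrays. The RNA came from many cells at once, and more cells of a type cannot be told apart from more RNA per cell.

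The cuticle is the collagen-rich coat that the epidermis secretes over the whole animal. A new one is built under the old at each larval molt, and different collagen genes are known to be transcribed at different times of a molting cycle and in different stages. Each collagen is made in the endoplasmic reticulum, where its prolines are hydroxylated, then trimmed by proteases, secreted, and cross-linked in the cuticle by enzymes that join tyrosines. Losing 1 of them can make the animal short (dumpy), twisted (roller), long or blistered, which gave many of these genes their names.

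The collagen genes did not differ as a block. Those with the brightest readings gave nearly the same values on both arrays. Many with intermediate readings were higher on the imp-2-labelled array, among them dpy-5, rol-8 and dpy-17. Among the dimmest members, sqt-1 alone was at least 2-fold higher with usable readings on both arrays, near the share of all genes. The dim rol-6 and bli-1 gave only lower bounds, because their readings on the GFP-labelled array were too low to use. Lower readings were few, and which of them passed 2-fold depended on the normalization.

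Values are linear intensities in arbitrary units, which depend on the probes, so a level is compared between arrays and never between genes. A value under an array's median (35.3 on the imp-2 RNAi array and 30.1 on the GFP RNAi array) was set to that median, called the floor, and a fold against it is a lower bound. A gene counted as expressed when its geometric mean over both arrays lay above 32.1. Log2 ratios are imp-2 RNAi over GFP RNAi, centred on the median of all expressed genes.

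By that filter 81 members were expressed and 65 were not. Of the 81, 74 were above the floor on both arrays, 6 on the imp-2 RNAi array alone and 1 on the GFP RNAi array alone. Of the 65, 56 lay under both floors, 7 were above it on the imp-2 RNAi array alone and 2 on the GFP RNAi array alone. A member that passed the filter through its imp-2 RNAi reading alone had to be higher there, so the main counts below are also given over members measured above both floors. Among all genes, 650 were above the floor on the imp-2 RNAi array alone and 534 on the GFP RNAi array alone. The gene table holds 31 further names that fit the choice, dpy-10 among them, whose genes have no probe set of their own. No probe set carried the name ram-4, and col-34 was counted under its col- name.

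The target gene did not check the labels. Of the 2 imp-2 probe sets, the brighter read 1754 on the imp-2-labelled array and 2318 on the GFP-labelled array, and the other 2517 and 510. Directions are therefore directions between labelled arrays. The RNA integrity controls differed in both directions, with 3′ over 5′ ratios from 1.12 to 16.7 on the imp-2 RNAi array and from 1.37 to 12.1 on the GFP RNAi array. A spread within the array pair was taken from 2489 pairs in which 2 expressed probe sets read 1 gene; their log2 ratios differed with a root mean square of 0.37 after division by the square root of 2. It says nothing about the spread between cultures.

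**Figure D1:**
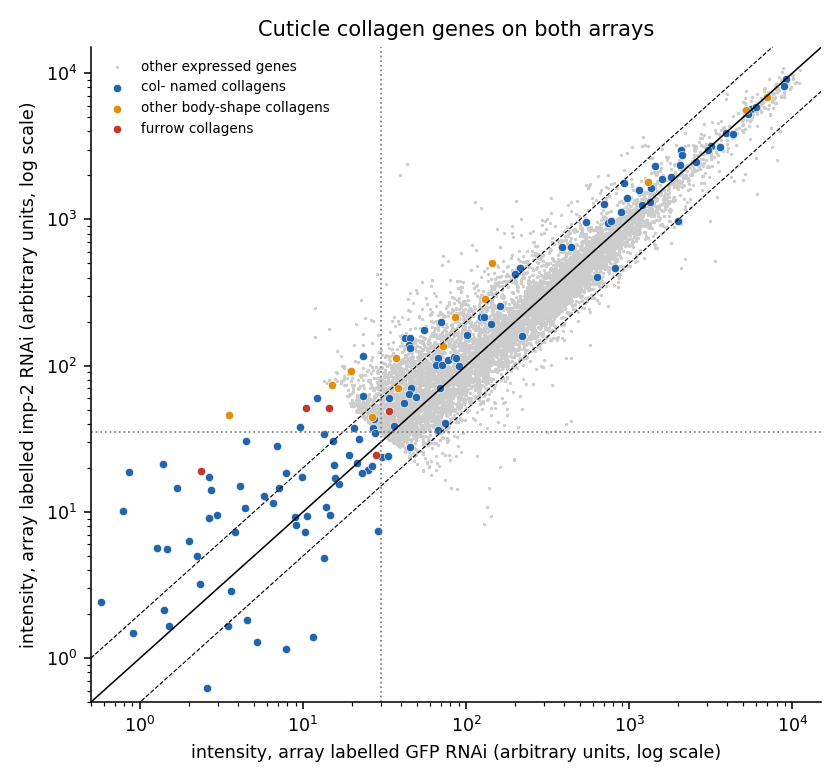
Intensity on the array labelled imp-2 RNAi (vertical, log scale) against the array labelled GFP RNAi (horizontal, log scale), for all 146 members (coloured by name class) and the other expressed genes (grey). The solid line is equality, dashed lines are 2-fold, dotted lines the floors of 35.3 and 30.1. The members brightest on both arrays lie near the line of equality. Of all 146 members 106 lie above it, beside 51.5% of all genes. Readings are shown without a floor, and the 56 members under both floors have no usable ratio.

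The furrow collagens form the circumferential furrows that ring the body, and animals that lose 1 of them are short and fat. Of the 5 with a probe set, dpy-7 alone passed the filter. It read 49.1 on the imp-2-labelled array and 33.6 on the GFP-labelled array, a log2 ratio of 0.54. The readings of dpy-3 were 51.3 and 14.4, and those of dpy-8 were 51.6 and 10.4, in the same order of labels. In both, the GFP RNAi array lay under its floor, so that dpy-3 was at least 1.69-fold and dpy-8 at least 1.70-fold higher. For dpy-9 the readings were 19.2 and 2.36, and for dpy-2 they were 24.7 and 28. Both of these genes lay under the floor on both arrays and have no usable ratio.

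More of the other body-shape collagens could be measured. The 2 classes are not ranked here, because the furrow value rests on dpy-7 alone. Of 13 with a probe set 12 were expressed, and of these 6 were 2-fold or more higher on the imp-2-labelled array and 0 as much lower. Their median log2 ratio was 1.03, against 0.00 over all expressed genes, with 9.72% of those 2-fold or more higher and 2.27% as much lower. Among the 9 measured above both floors, 4 were at least 2-fold higher and the median was 0.92. Of all expressed genes above both floors, 8.69% were higher and 2.04% lower by that measure.

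The collagen gene dpy-5, whose loss shortens the body, had the highest ratio of the class. It read 507 on the imp-2-labelled array and 143 on the GFP-labelled array, 3.52-fold higher. By contrast dpy-13, whose loss also shortens the body, read 6824 and 7000, a log2 ratio of −0.05. The 2 dumpy genes therefore lay at opposite ends of the class on these arrays, on probe sets that can both match several transcripts. The dumpy genes dpy-17, dpy-14 and dpy-4 lay between them. Readings of dpy-17 were 287 on the imp-2-labelled array and 130 on the GFP-labelled array (2.20-fold higher), those of dpy-14 were 137 and 71.9 (1.89-fold), and those of dpy-4 were 1794 and 1312 (1.36-fold).

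The roller and squat collagens, altered forms of which twist the body around its long axis, were higher on the imp-2-labelled array, apart from sqt-3. The gene sqt-1 read 113 on the imp-2-labelled array and 37.3 on the GFP-labelled array, 3.0-fold higher. Its partner in body twisting, rol-6, read 91.6 and 19.7, the latter under the floor, which makes it at least 3.02-fold higher. The gene rol-8 read 217 and 84.9, 2.53-fold higher, and its dimmer probe set, under the floor on the GFP-labelled array, gave a bound of 1.3 on the log2 scale against 1.34. For sqt-2 the readings were 70.2 and 38.1, 1.83-fold higher and short of the 2-fold limit.

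The reading of sqt-3 depended on the probe set. This collagen is needed for embryos to keep their elongated shape, in which it acts together with dpy-17. Its brighter set, which can match several transcripts, read 5577 on the imp-2-labelled array and 5208 on the GFP-labelled array, a log2 ratio of 0.09. Its other set, of a kind that matches 1 transcript, read 553 and 203, 2.70-fold higher (log2 ratio 1.43). That gap of 1.35 was the widest among the 7 pairs of expressed probe sets of 1 member, the other 6 of which differed by 0.54 or less. The value of sqt-3 is therefore uncertain.

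The strut collagens bli-1 and bli-2 build the columns that join the layers of the adult cuticle, and their loss raises fluid-filled blisters. The brighter bli-1 set read 73.8 on the imp-2-labelled array and 15.1 on the GFP-labelled array, at least 2.43-fold higher, and its other set lay under both floors. With intensity-dependent centring its log2 ratio was 0.99, just short of 2-fold. Readings of bli-2 were 45.7 and 3.50; it did not pass the filter and was at least 1.51-fold higher. The gene lon-3, whose loss lengthens the body, read 44.8 and 26.5, at least 1.48-fold higher. In all 3 genes the GFP RNAi reading lay under the floor, and bli-1 and lon-3 passed the filter through the imp-2 RNAi array alone.

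**Figure D2:**
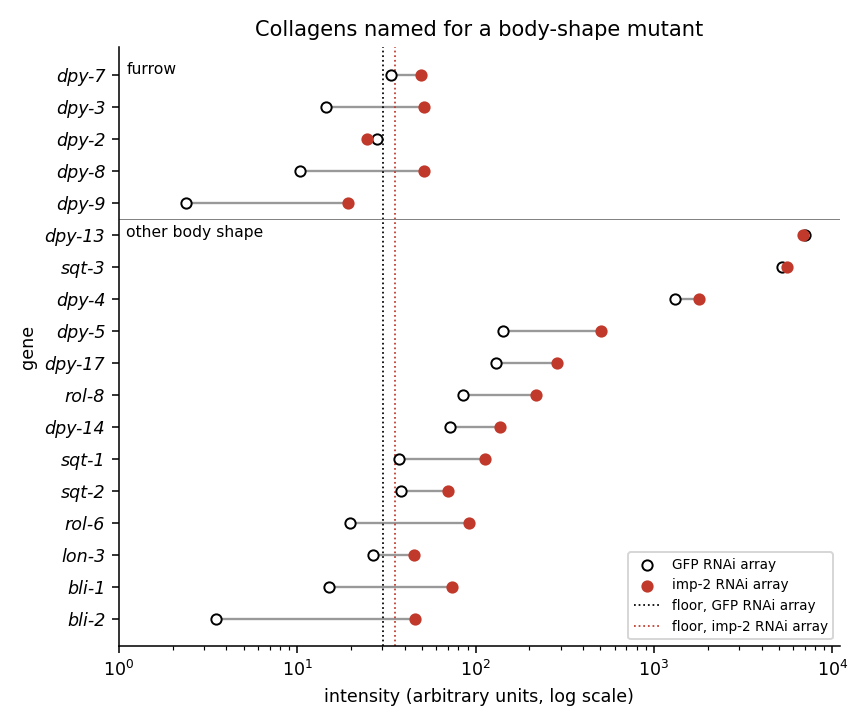
Intensity (horizontal, log scale) on the array labelled imp-2 RNAi (filled) and on the array labelled GFP RNAi (open) for the 18 collagens named for a body-shape mutant, with the floors as dotted lines. Points are single arrays from the chosen probe set of each gene, without a floor; dpy-2 and dpy-9 lie under both floors and have no usable ratio, and dpy-13 is nearly level.

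Among collagens with a col- name, 68 of 128 were expressed, with a median log2 ratio of 0.42. Of these, 11 (16.2%) exceeded 2-fold upward on the imp-2-labelled array and 1 downward, beside 9.72% and 2.27% of all expressed genes. Over the 64 above both floors the median was 0.39, and 9 exceeded 2-fold upward, where 8.69% of all genes above both floors did. The highest measured above both floors was col-104, which read 156 on the imp-2-labelled array and 42.1 on the GFP-labelled array (3.67-fold). Then came col-14 at 155 and 45.2 (3.39-fold) and col-48 at 175 and 55.1 (3.15-fold). These 3 genes had moderate readings on the imp-2-labelled array and readings not far above the floor on the GFP-labelled array.

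The gene col-113 read 139 on the imp-2-labelled array and 44.4 on the GFP-labelled array, 3.10-fold higher. For 2 further genes both expressed probe sets passed 2-fold. Those of col-109 were 2.89-fold and 2.51-fold higher, and those of col-97 were 2.80-fold and 2.45-fold higher. The next were col-145, which read 455 and 210 (2.15-fold), and col-107, which read 463 and 214 (2.14-fold). The last above both floors was col-38 at 426 and 199 (2.12-fold), named after its value was seen because it alone remained. The sets of col-145, col-107 and col-38 can all match several transcripts. Bounds were at least 3.81-fold for col-90, which read 116 and 23.5, and at least 2.06-fold for col-120, which read 62.4 and 23.5. The latter fell short of 2-fold with quantile normalization (a log2 ratio of 0.85) and with intensity-dependent centring (0.76).

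Listed collagens with a known stage ranged from near level to higher on the imp-2-labelled array, and none with a usable ratio was lower. The largest ratio among them was that of col-14, described above (3.39-fold higher). The gene col-19, which is switched on in the adult epidermis, read 1264 on the imp-2-labelled array and 1194 on the GFP-labelled array, a log2 ratio of 0.07. The dauer collagen gene col-2 lay under both floors at 21.6 and 21.5. Readings were 2323 and 1430 for col-12 (1.61-fold higher) and 2753 and 2094 for col-17 (1.3-fold higher). The adult collagen gene col-7 and col-10 and col-13 have no probe set of their own. The transmembrane collagen gene col-99, which shares the name but is not a typical cuticle collagen, lay under both floors at 31.4 and 22.

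The members with the brightest readings were level between the arrays. The 12 brightest had log2 ratios between −0.20 and 0.09, none further apart than 1.15-fold, with 10 of them slightly below 0. These signs depended on the processing. With quantile normalization or intensity-dependent centring, only col-106, col-8 and col-93 of the 12 stayed below 0. The brightest, col-119, read 9051 on the imp-2-labelled array and 9190 on the GFP-labelled array, and its other set gave a log2 ratio of 0.06. For col-93 the readings were 8131 and 8945, while its other set read 8582 and 7575, so the small difference changed sign between sets. Others among the 12 were col-124 (5848 on the imp-2-labelled array and 5958 on the GFP-labelled array), col-122 (5715 and 5611), col-160 (5214 and 5344) and col-140 (3878 and 3906). With dpy-13 and sqt-3, the rest were col-8, col-80, col-106 and col-184, between 2975 and 4301 on both arrays. Of these 12 genes, 9 were read by sets that can match several transcripts. The highest probe set of any kind read 11334 on the imp-2 RNAi array and 11100 on the GFP RNAi array, above every member.

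Lower readings on the imp-2-labelled array were uncommon. Of the 81 expressed members, 19 had a log2 ratio at or below 0, against 4277 of all 8553 expressed genes. The gene col-20 read 972 on the imp-2-labelled array and 1995 on the GFP-labelled array, 2.07-fold lower. It was close to the limit, at −0.96 on the log2 scale once the arrays were quantile-normalized and −0.97 where centring followed intensity. Next were col-115 at 36.5 and 67.3 (1.86-fold lower), col-141 at 40.6 and 73.9 (1.83-fold lower) and col-101 at 464 and 816 (1.77-fold lower). The readings of col-115 and col-141 on the imp-2-labelled array lay just above the floor, and these were the genes past 2-fold lower under those settings (−1.08 and −1.06 with quantile normalization, −1.15 and −1.12 with intensity-dependent centring). The gene col-34 read 401 and 631 (1.58-fold lower) and col-118 read 158 and 220 (1.40-fold lower). In col-68, at 27.9 and 45.2, the imp-2 RNAi array lay under its floor and the gene was at least 1.29-fold lower. The remaining member of the 12 lowest was col-181, a log2 ratio of −0.07 from readings of 2453 and 2563.

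**Figure D3:**
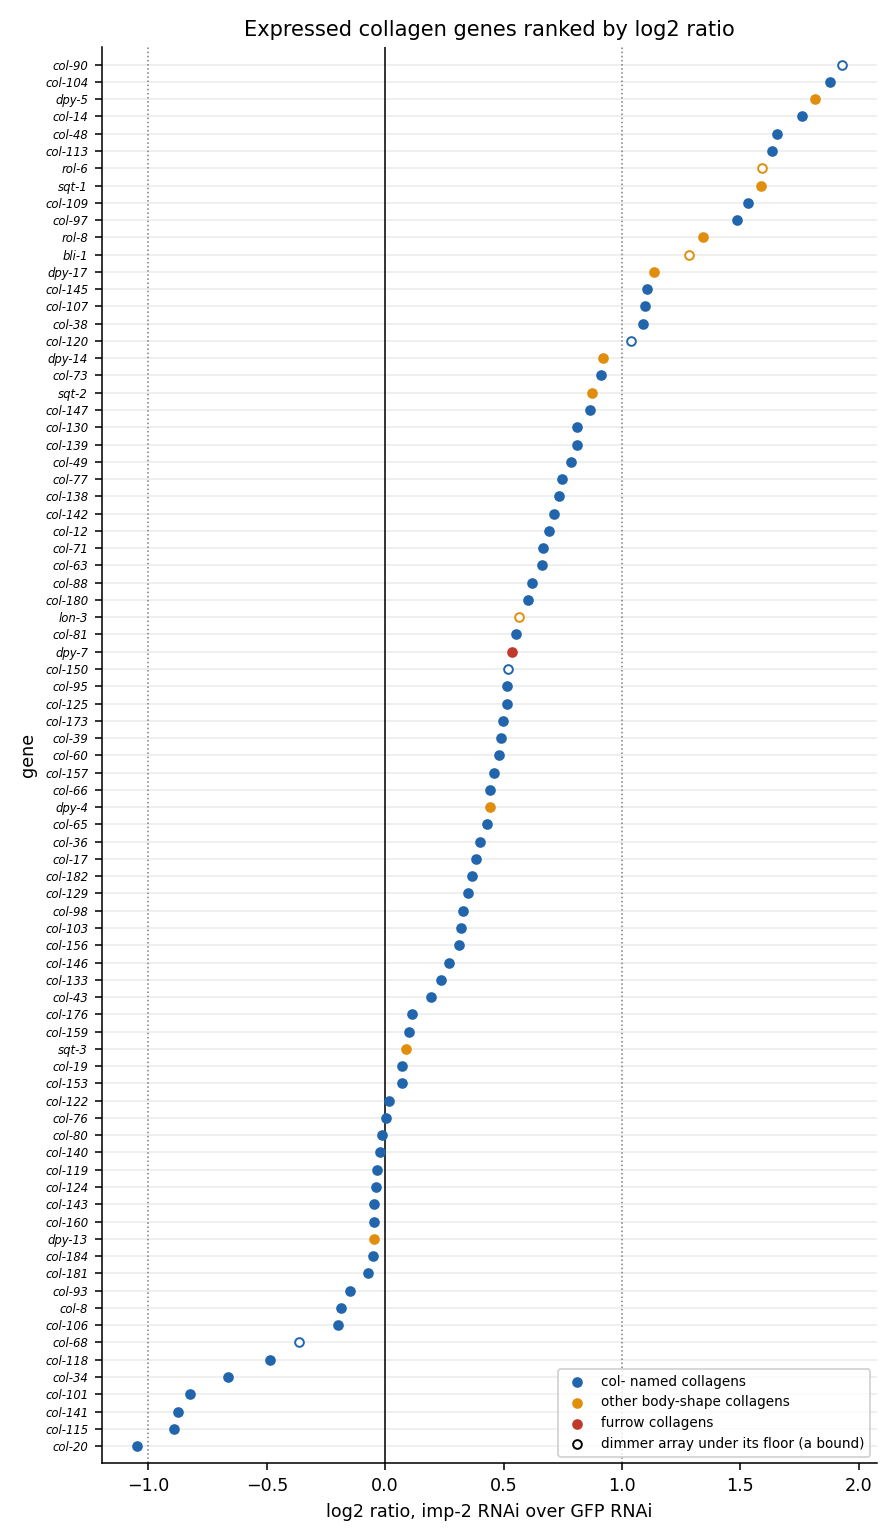
Log2 ratio (imp-2 RNAi over GFP RNAi) of each of the 81 expressed members, 1 point per gene from 1 array per group, ranked; open points are bounds, and dotted lines mark 2-fold. The points run from −1.05 for col-20 to 1.93 for col-90, with 17 at or beyond the upper 2-fold line and 1 beyond the lower.

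Set against the within-pair spread, 25 expressed members were higher by more than 2 such spreads (0.75 on the log2 scale) and 4 were lower. Of all expressed genes 15% were higher and 5.40% lower by that measure. Over the 74 members above both floors, 21 were higher and 4 lower, where 13.4% and 5.15% of all genes above both floors were. At 2-fold, 17 of 81 members (21%) were higher, beside the 9.72% given above, and 13 of the 74 members measured above both floors, beside 8.69%. These counts describe the arrays and are not tests, since all members were read on the same pair.

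The difference depended on intensity. All 8553 expressed genes were cut into 4 equal bins by mean intensity, a split chosen after the values were seen. In the dimmest bin, 5 of 19 members were at least 2-fold higher, where 14.2% of all genes were. Of those 5, col-90, rol-6, bli-1 and col-120 had GFP RNAi readings under the floor, and over genes above both floors the count was 1 of 12 members (sqt-1), where 10.9% of all genes were. That count is near the background. In the second bin 7 of 19 were higher, where 15.9% of all genes were, and all 7 lay above both floors. In the third bin, from 183 to 441, 5 of 7 members were higher, where 6.31% of all genes were: dpy-5, dpy-17, col-38, col-107 and col-145. All of these but dpy-17 were read by sets that can match several transcripts. The readings of col-107 and col-145 were nearly alike, and whether their sets read separate transcripts was not tested. In the brightest bin 0 of 36 members were at least 2-fold higher, where 2.43% of all genes were. The median log2 ratios of members from the dimmest to the brightest bin were 0.54, 0.75, 1.1 and 0.09, and those of the other expressed genes were 0.25, 0.09, −0.09 and −0.11. The median of the other genes lay below that of the collagens in each bin, and it too was above 0 in the dimmer bins. The floors themselves had a log2 ratio of 0.23 between the arrays.

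**Figure D4:**
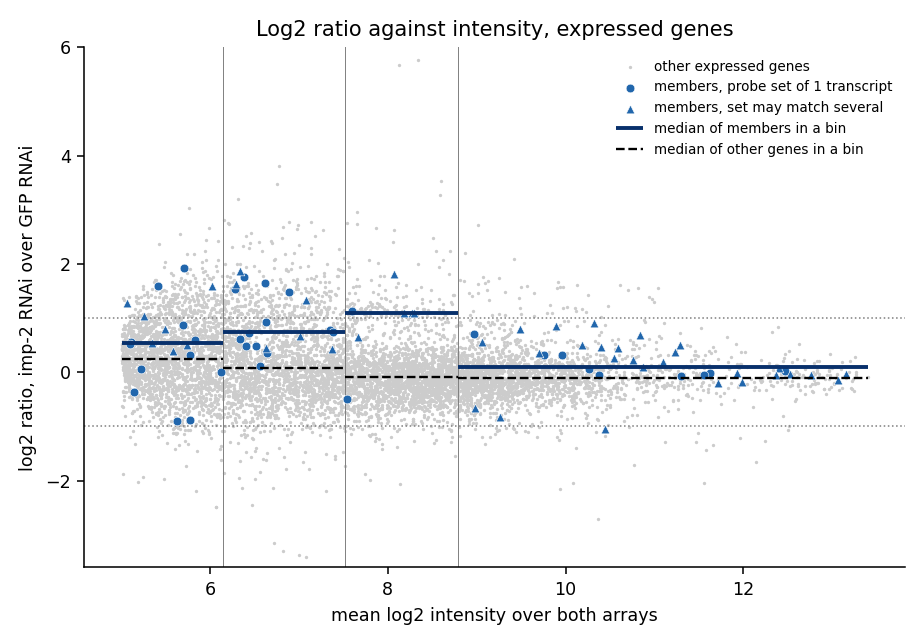
Log2 ratio (vertical) against mean log2 intensity over both arrays (horizontal) for expressed genes, members as blue points by kind of probe set and other genes in grey. Solid bars are the members' median in each intensity bin (0.54, 0.75, 1.1 and 0.09) and dashed bars that of the other genes (0.25, 0.09, −0.09 and −0.11).

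Collagen genes resemble each other in sequence, so the kind of probe set matters. In this platform's names, a suffix marks sets whose probes can match several transcripts; such sets read 45 of the 81 expressed members. The 36 members read by a set without the suffix had a median log2 ratio of 0.49, and 7 were at least 2-fold higher (5 of the 31 above both floors) and none lower. The 22 with the suffix s had a median of 0.66, and 8 were higher (6 of the 20 above both floors) and 1 lower. The 23 with the suffix x had a median of 0.38, and 2 were higher, both above both floors. Corresponding medians over other expressed genes were 0.02, −0.04 and 0.05, and the shares higher were 10.6%, 7.55% and 10.8%. The 8.70% of the suffix x members lay below the last of these. In the brightest bin, the 9 members without a suffix had a median of 0.02, and 8 of them were within 1.5-fold, so near-level readings at high intensity were also seen there. The 27 with a suffix in that bin had a median of 0.19.

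The gene order of the WBcel235 assembly holds 28 pairs of members next to each other among protein-coding genes, of which 7 had both genes expressed. Their log2 ratios differed by between 0.15 and 1.96. The genes col-17, col-20 and col-73 follow each other and had log2 ratios of 0.38, −1.05 and 0.91, so the 1 member past 2-fold lower lay between 2 with higher readings. All 3 were read by sets that can match several transcripts. Of another pair, col-141 read lower and col-142 higher (−0.88 and 0.71), both on sets without a suffix. The pair col-159 and col-160 was level at 0.10 and −0.05, and dpy-13 and col-34 gave −0.05 and −0.66. The near-level col-80 (−0.01) lay between col-39 (0.49) and bli-1 (at least 1.28, since its GFP RNAi reading was under the floor).

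Enzymes that modify, trim and cross-link collagens were given by a list of 19 genes, of which 15 were expressed. Of these, 2 were at least 2-fold higher on the imp-2-labelled array and none was lower by that measure, which is 13.3% of this short list beside the 9.72% of all genes, and the median log2 ratio was 0.32. Both encode subunits of prolyl 4-hydroxylase. The prolyl 4-hydroxylase gene dpy-18 read 491 on the imp-2-labelled array and 155 on the GFP-labelled array, 3.14-fold higher, and its dimmer sets gave log2 ratios of 2.80 and 3.07. Its partner subunit pdi-2 read 1158 and 556, 2.07-fold higher, with 0.62 on its other set. A further prolyl 4-hydroxylase gene, phy-2, read 118 on the imp-2-labelled array and 94.9 on the GFP-labelled array, a log2 ratio of 0.31. The related phy-3 lay under both floors. The listed pdi-1 had a log2 ratio of 0.05, with 0.40 on its other set, and pdi-3 had −0.17. Short of 2-fold, pdi-6 read 3034 on the imp-2-labelled array and 1598 on the GFP-labelled array (1.88-fold), with a log2 ratio of 1.15 on its other set. The protease gene dpy-31, which trims sqt-3 and dpy-17 products, had log2 ratios of 0.66 by its brightest set and of 1.14 and 0.62 by the others, and tsp-15, a partner of the cross-linking oxidase, had 0.71. The peroxidase gene skpo-1 and the collagen secretion gene tmem-39 had log2 ratios of −0.66 and −0.78.

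Other matrix genes gave small lists. Of 39 cuticlin and zona pellucida domain genes 33 lay under both floors and 6 were expressed; noah-1, a gene of the apical matrix, read 281 on the imp-2-labelled array and 103 on the other (2.71-fold higher), and the median of the 6 was 0.48. Of collagens outside the cuticle, the type IV genes emb-9 and let-2, which make basement membrane, had log2 ratios of 1.59 and 0.76, and the touch neuron collagen gene mec-5 had −0.08. For emb-9 the other set gave 0.56.

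Among 21 regulators of cuticle collagen genes or of body size, 15 were expressed and none was at least 2-fold higher on the imp-2-labelled array. The zinc finger gene lin-29, which drives the switch of the epidermis to its adult form, read 31.2 on the imp-2-labelled array, under the floor, and 77.2 on the GFP-labelled array. It was at least 2.20-fold lower. The developmental timing gene lin-28 read 213 and 408, a log2 ratio of −0.95. The body-size signalling genes were mixed. Log2 ratios were 0.81, 0.79, 0.72 and 0.77 for sma-4, sma-6, sma-3 and lon-1, and at least 0.77 for sma-10. They were 0.10, 0.24 and −0.33 for sma-9, daf-4 and lon-2, while sma-2 and dbl-1 lay under both floors. The molting receptor gene nhr-23 had −0.46, and −0.04 on its other set, which was under the floor on the imp-2-labelled array. For nhr-25 the log2 ratio was at least 0.78.

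Losing a furrow collagen is known to raise a set of stress and defence genes. Of 5 such genes listed, the antimicrobial peptide genes nlp-29 and cnc-2 were higher on the imp-2-labelled array, nlp-29 by 6.61-fold (1339 and 201) and cnc-2 by at least 6.69-fold (203 and 27). The detoxification gene gst-4 (129 and 113) and the glycerol synthesis gene gpdh-1 (36.1 and 28.9) had log2 ratios of 0.19 and 0.25, and hmit-1.1 lay under both floors. Thus 2 of the 4 expressed genes of this short list were at least 2-fold higher, beside 9.72% of all expressed genes. Whether the furrow collagens have a part in these readings was not tested.

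**Figure D5:**
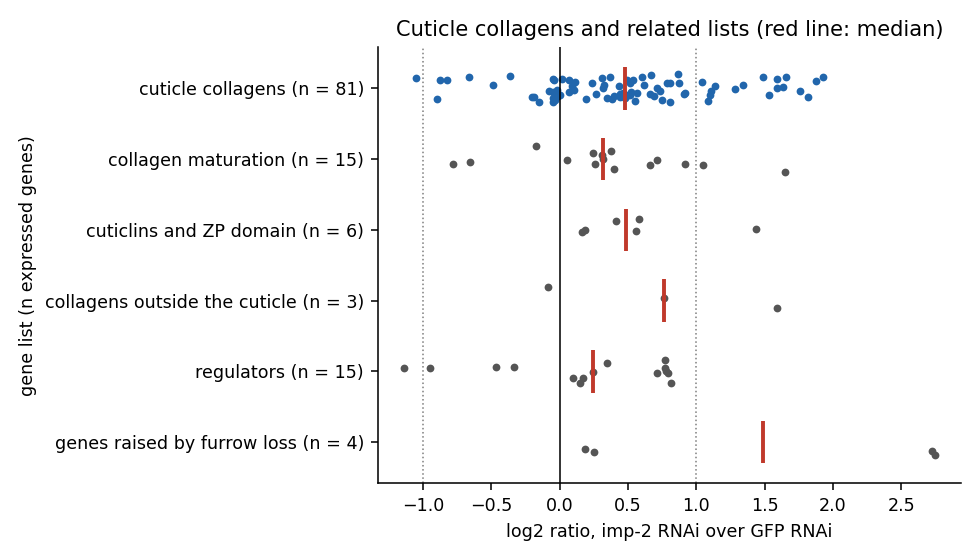
Log2 ratio (horizontal) of each expressed gene of the cuticle collagens and of 5 related lists, 1 point per gene with vertical jitter, red lines at the medians of 0.48, 0.32, 0.48, 0.76, 0.24 and 1.49 from top to bottom. The collagens span 2-fold in both directions, while the regulators reach it only downward, with lin-29.

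Marker genes of other tissues were set beside the collagens because the whole animal was sampled. The source label also names a mammalian brain region, which nematodes lack. Markers of every listed tissue were read: 7 of 7 for muscle, 7 of 8 for intestine, 7 of 8 for neurons, 8 of 8 for germline and 7 of 7 measured for sperm were expressed. For epidermal markers other than collagens, 10 of 12 were expressed, 2 were at least 2-fold higher on the imp-2-labelled array, and the median log2 ratio was 0.26; the summed intensity was 1688 there and 1543 on the GFP-labelled array. Intestinal markers had 4 of 7 at least 2-fold higher, beside the 9.72% of all expressed genes that holds for each of these lists, a median of 1.09, and sums of 7480 and 5693. Of these 4, elt-7 was a bound. Above both floors 3 of 6 intestinal markers were at least 2-fold higher, where 8.69% of all such genes were, with a median of 1.01. Muscle markers had a median of 0.03 and germline markers −0.09, with none 2-fold apart. For neurons the median was −0.31, with 1 gene 2-fold higher. Yolk genes of the adult intestine, 5 of 5 measured expressed, had a median of 0.51 and sums of 27456 and 24863, and the sperm markers had 0.39. The listed markers elt-2, unc-31, che-14 and rnt-1 lay under both floors. The part of tissue makeup or stage in the collagen values was not tested.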

How the data were processed

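Whole-animal total RNA was measured on 2 Affymetrix arrays, per the labels, which also gave the groups. The deposited values are linear intensities, 1 per probe set and array (22625 probe sets, 77 of them controls), already summarised by the authors and with the same mean after trimming 2% at each end (150.04). How they were summarised, background-corrected and scaled was not given in the sources used here, nor were detection calls. The number of arrays limits the precision.

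Probe sets were named from the platform annotation: 20766 had 1 gene and were used, 887 had several and 895 none. Of the 20766, 20701 matched the WBcel235 gene table, used for names and gene order, and 0 symbols changed. The brightest probe set stood for a gene. Values were floored, converted to log2 and centred (a shift of 0.01); a gene past 2-fold was counted. Python 3.11.15 with pandas 2.3.3, NumPy 2.4.6 and statsmodels 0.14.6 was used. The steps were run on simulated data with known changes in brighter expressed genes alone, so ratios of dim genes and bounds were not tested there.

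Members and lists were chosen with earlier results of these data known. Genes were named by a rule: members with a mutant name, the 12 highest, 12 lowest and 12 brightest, up to 6 bounds a direction, those with a known stage, members whose probe sets differed by at least 1, and listed genes furthest from 0. Features of the protein sequences were planned and are not analysed here. Alternatives were the floor, the filter, the normalization, the centring and the choice of probe sets.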

Additional observations from a re-analysis of the deposited data

How the results depend on the processing

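The median log2 ratio of the collagens stayed above 0 under each of the 10 alternatives, between 0.22 and 0.50, beside 0.48. No paired analysis was possible because each group holds 1 array. Without the filter on dim genes the median was 0.22 over 146 members and 0.22 over the 128 with a col- name, the value that genes under both floors are given and also the median of all genes there, and 0.92 for the other body-shape collagens. Above the 75th percentile of brightness, the medians were 0.24 over 43 members, 0.21 for those with a col- name and 0.44 for 5 other body-shape collagens, and 5 of the 43 (11.6%) were at least 2-fold higher, where 4.42% of other genes were. Without sets that can match several transcripts, 8 of 37 members (21.6%) were at least 2-fold higher, where 10.2% of other genes were, and 0 lower, beside 17 and 1 of 81, and the maturation enzymes had a median of 0.61 over 9 genes. With neither floor nor filter, an alternative added after seeing the data, 45 of 146 (30.8%) were higher and 9 lower, where 17.1% and 11.8% of other genes were, all of the added ones among members below that filter. Quantile normalization and intensity-dependent centring gave 16 and 15 higher genes, without col-120 and, with the latter, bli-1, and each gave 2 lower genes, col-115 and col-141, while col-20 fell short of 2-fold; the furrow value, which rests on dpy-7 alone, was 0.33 and 0.26. The other body-shape collagens had 0.89 with intensity-dependent centring and 0.93 with the mean of probe sets. Of 314 values of named genes under 8 alternatives, 310 moved by less than the probe set spread, 4 moved by more (bli-1 and rol-6 without the floor, sqt-3 with the mean of its probe sets and without the suffixed set) and 0 changed direction past 2-fold. Low signal limits the furrow and strut collagens, most of which read near or under a floor.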

Other observations

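A further 17 probe sets are given by the annotation to several genes of which at least 1 is a collagen, and they name no single gene. All 17 were expressed by the same filter, with readings between 62.6 and 7885. Their log2 ratios ran from −0.12 to 0.75 with a median of 0.31, 14 were above 0, and none reached 2-fold in either direction. These sets were used in no comparison above.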
